A study of Arabidopsis thaliana with 4 samples.

Results

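The GH9 endoglucanases are the plant members of glycoside hydrolase family 9, and their genes were followed here in seedlings of the Arabidopsis mutant add3 and of wild type. The members were the probe sets whose platform annotation gave 1 gene with a symbol that begins with GH9, and 15 of the 22746 non-control probe sets met that rule. They stand for 2 genes of subclass A, 10 of subclass B and 3 of subclass C. The rule uses gene symbols only, but GH9B8, GH9B13 and GH9C2 were picked out beforehand by how they differed between these same arrays. The differences between mutant and wild type are therefore given as a description, and nothing is inferred from them.

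Mutant seedlings were add3 (ARRESTED DEVELOPMENT 3), obtained by EMS treatment and carried in Col-3 gl1, a background without leaf hairs. Wild-type seedlings were Col-0. The add3 mutation and the change of background therefore cannot be told apart in any comparison. Each group had 2 samples, each hybridised to 1 Affymetrix ATH1 array. All plants were stratified at 4 °C for 4 days and then grown on peat mix at 29 °C in continuous light (24 h), and shoots (hypocotyls, cotyledons, meristems, first true leaves and leaf primordia) were taken at stage 1.02. Nothing in the labels says that the replicates came from separate plantings, so their spread may be technical.

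GH9 enzymes cut internal links of beta-glucan chains such as those of cellulose, and plants use them when walls are built, expand or are taken apart. Subclass A enzymes, of which KORRIGAN is the best known, are anchored in a membrane and take part in cellulose synthesis. Subclass B enzymes are secreted and consist of the catalytic domain alone. Subclass C enzymes are secreted too and carry an additional carbohydrate-binding module at the C terminus. No sequence of the genes or probes was used here.

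The values are MAS5 signals, a linear brightness per probe set that the authors scaled to a common trimmed mean on every array. The arrays had median signals of 48.4 and 48.2 in add3 and of 52.1 and 51.4 in wild type. The background level of an array, the highest signal among 27 unspiked bacterial controls, was 25.4 (replicate 1) and 12.3 (replicate 2) in add3, against 20.5 (replicate 1) and 13.0 (replicate 2) in wild type. The number of arrays limits the precision of every value below. Of the 6 leaf markers listed for a check of the tissue, the annotation gave a probe set to 2, PSBY and LHCB4.3. Both lay above background on all 4 arrays. Their summed signal was 3070 to 3104 in add3 and 1813 to 1908 in wild type, so these 2 leaf markers were themselves higher in the mutant. The root-hair gene EXPA7 read 12.1 and 5.87 in add3, not above background, against 26.8 and 17.9 in wild type, and the stem-cell gene CLV3 read 2.54 and 1.56 in add3 against 21.7 and 3.97 in wild type, where replicate 1 alone exceeded its background. The part of these marker shifts in the GH9 differences was not tested. In these bulk samples fewer cells of a type and less RNA per cell cannot be told apart.

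Of 25 Arabidopsis loci listed for the family, 15 had a probe set of their own, 4 shared 2 probe sets and 6 were not named in the annotation used. The unnamed loci include GH9A1, the KORRIGAN gene itself, as well as KOR2, GH9B1, CEL2, CEL3 and CEL5, so they were not analysed here. Of the 15 members, 6 lay above background on all 4 arrays, 5 on some arrays and 4 on none. Testing was limited to probe sets whose mean signal reached the 40th percentile (33.2), which kept 6 members: 1 of subclass A, 4 of subclass B and 1 of subclass C. The nearest member above that limit was GH9B18, with a mean signal of 41.2 over the 4 arrays, and the nearest below it was GH9B12, with 29.9. Signals of different probe sets are not compared with each other, because each depends on its own probes.

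**Figure D1:**
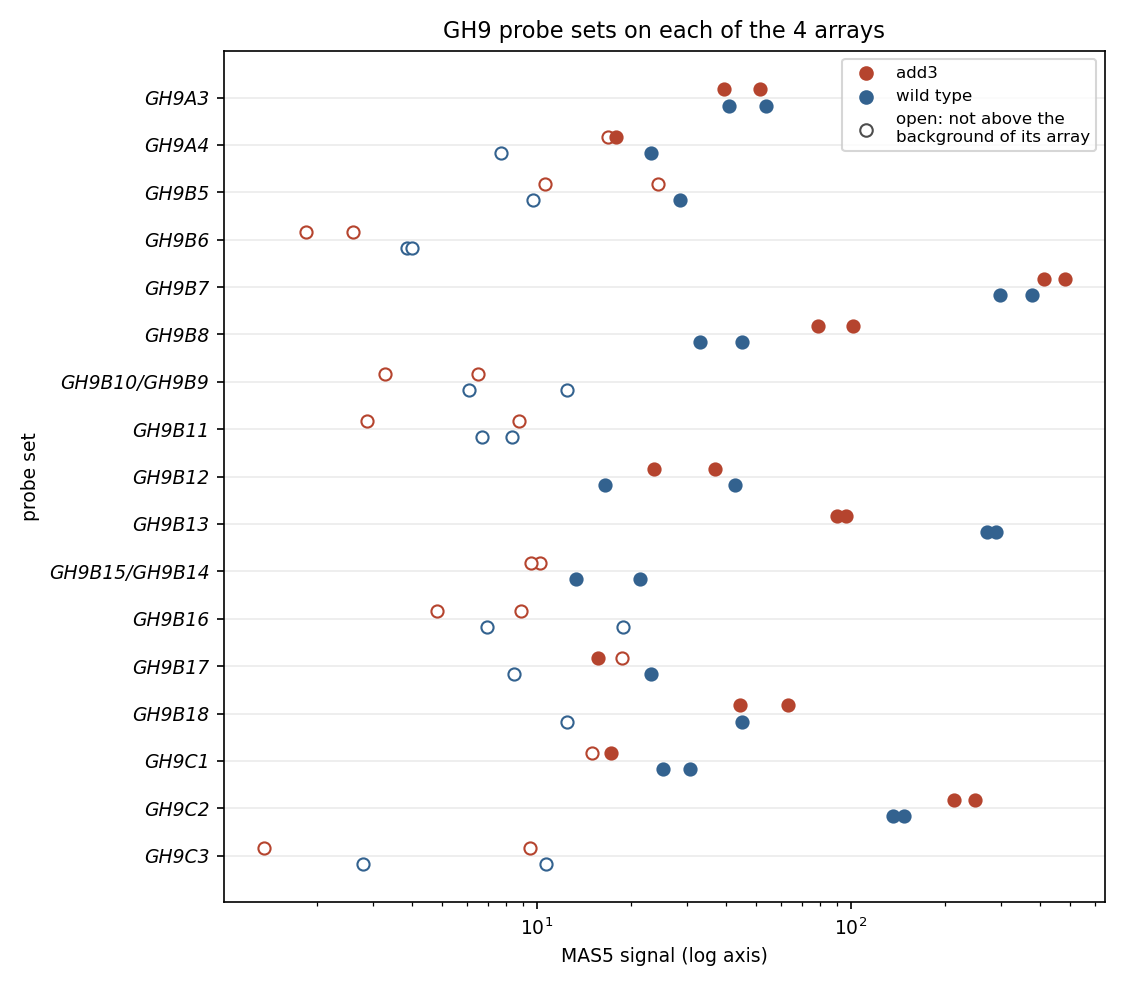
Signals on a log axis for the 15 GH9 probe sets and the 2 shared ones, with add3 (red) above wild type (blue) in each row and 1 point per array. Filled points exceed the background level of their own array, and open points do not. The groups lie apart for GH9B13, GH9B8, GH9C2 and GH9B7 among the brighter probe sets, and 4 of the 15 members have open points only.

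Differences were computed as add3 minus wild type on log2(signal + 12.5), a scale that understates changes of dim genes, and called at a limma Benjamini-Hochberg adjusted p under 0.05 over 13648 probe sets. The fit called 2 tested members higher in add3 (GH9B8 and GH9C2) and 1 lower (GH9B13). Of all tested probe sets 4.17% were called higher and 3.14% lower, or 7.31% in either direction. After scaling the arrays to a common median, the split over all probe sets was 937 higher and 319 lower, in place of 569 higher and 428 lower, while GH9B8, GH9C2 and GH9B13 kept their calls. The groups did not overlap for 3 members that were higher in add3 and 1 that was lower, among 6 tested. Over all tested probe sets such a separation was seen in 24.8% with add3 higher and in 32.3% with add3 lower.

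GH9B13 (AT4G02290), a secreted subclass B endoglucanase gene, had signals of 96.2 and 90.3 in add3, against 271 and 289 in wild type. Both mutant arrays were low, both wild-type arrays were high, and the groups lay far apart. The means were 93.3 ± 4.18 in add3 and 280 ± 13.0 in wild type (SD over n = 2 arrays per group, here and below). Its log2 difference was -1.47 (SE 0.13), the 44th lowest among the 13648 tested. In the 4 pairs of a mutant with a wild-type array the signal ratio lay between 0.313 and 0.356, while replicates differed by a factor of 1.06 in add3 and 1.07 in wild type. The gene kept its call under all 12 alternatives tried, including those that left out 1 array, with log2 differences from -1.57 to -1.20.

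GH9B8 (AT2G32990), of the same secreted subclass, differed in the opposite direction. Its signals were 101 and 78.7 in add3, against 33.2 and 45.1 in wild type. The lower mutant array was still 1.74 times the higher wild-type array. The means were 90.1 ± 16.0 in add3 and 39.1 ± 8.47 in wild type, and the log2 difference was 0.99 (SE 0.19), the 145th highest of all tested. Replicates differed by a factor of 1.29 in add3 and 1.36 in wild type. The call was lost without add3 replicate 1, where the log2 difference was 0.83, and without wild-type replicate 1, where it was 0.82. It was also lost when no filter on dim probe sets was used. The 60th percentile filter left GH9B8 out of the test, so it had 11 alternatives. The log2 difference was 0.65, still called, when the pseudocount was raised to the median signal.

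GH9C2 (AT1G64390) was the tested gene of subclass C, whose enzymes carry the carbohydrate-binding module. Its signals were 213 and 249 in add3, against 136 and 147 in wild type. Both mutant arrays lay above both wild-type arrays, with ratios of 1.45 to 1.83 over the 4 pairs. The means were 231 ± 25.4 in add3 and 142 ± 7.63 in wild type, and the log2 difference was 0.66 (SE 0.14). The call was lost on leaving out any 1 of the 4 arrays, add3 replicate 1 (log2 difference 0.76), add3 replicate 2 (0.55), wild-type replicate 1 (0.61) or wild-type replicate 2 (0.71). The call was also lost without a filter on dim probe sets and without the intensity trend in the fit.

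**Figure D2:**
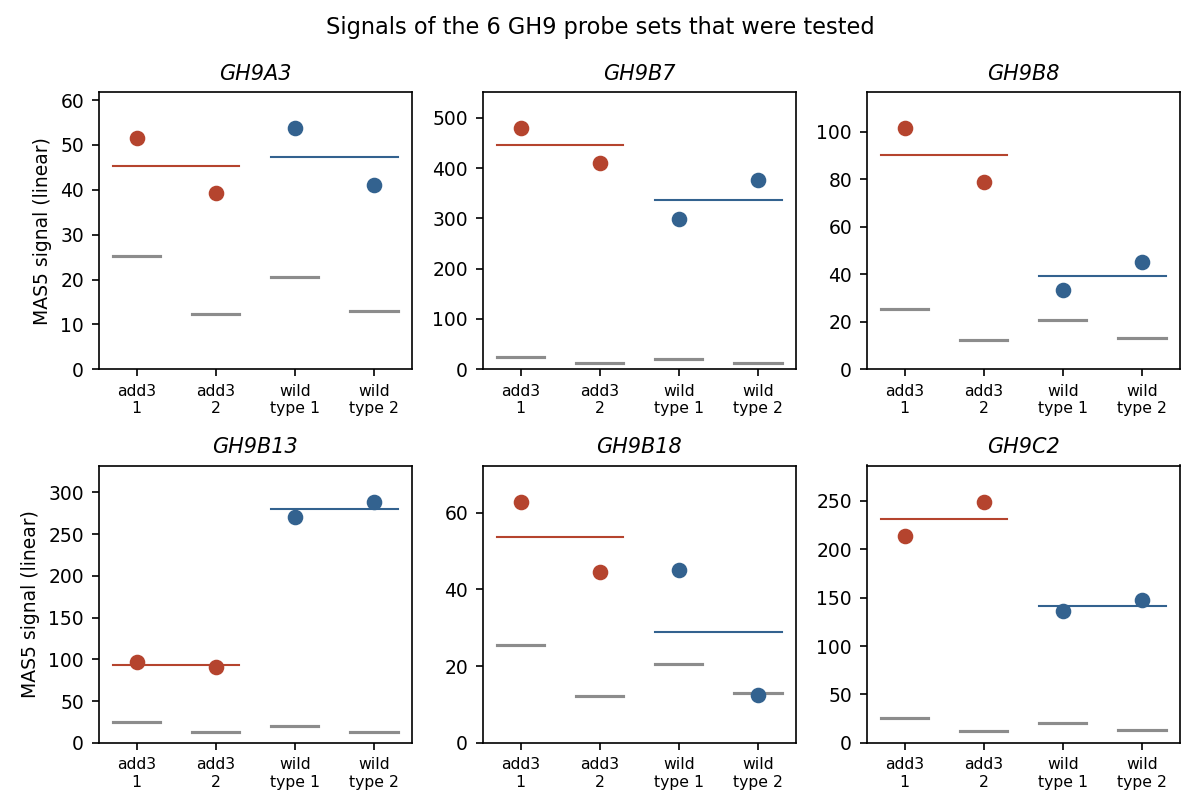
Signals of the 6 tested GH9 probe sets, 1 point per array on a linear axis from 0, with add3 (red) left of wild type (blue), a coloured line at each group mean and a grey line at the background level of each array. GH9B13 is low on both add3 arrays (96.2 and 90.3), and GH9B8 and GH9C2 are high on both. In GH9A3 and GH9B18 replicate 1 is the higher array in both groups.

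GH9B7 (AT1G75680), another subclass B gene, had signals of 480 and 411 in add3, against 299 and 376 in wild type. The groups did not overlap, but the closest pair of arrays differed by a factor of 1.09 and the wild-type replicates by 1.26. Its log2 difference of 0.39 (SE 0.15) was not called, and remained above 0 under all 12 alternatives (0.23 to 0.55).

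GH9B18 (AT4G39010), also of subclass B, had signals of 62.8 and 44.4 in add3, against 45.1 and 12.5 in wild type. Replicate 1 was the higher array in both groups. The groups overlapped by a narrow margin, and wild-type replicate 2 was not above its background level of 13.0. The wild-type replicates differed by a factor of 3.61, which is more than the ratio of 1.86 between the group means. The log2 difference of 0.79 (SE 0.38) was not called with all 4 arrays. It was 1.39 and called without wild-type replicate 1, and 0.18 without wild-type replicate 2, so the value rests on which wild-type array is used.

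GH9A3 (AT4G24260; KOR3 among its synonyms) was the tested member of the membrane-anchored subclass. Its signals were 51.5 and 39.3 in add3, against 53.7 and 41.0 in wild type. Replicate 1 was the higher array in both groups, by a factor of 1.31 in each, and the groups overlapped. The log2 difference of -0.05 (SE 0.20; 95% interval -0.52 to 0.42) was not called and changed sign between alternatives.

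**Figure D3:**
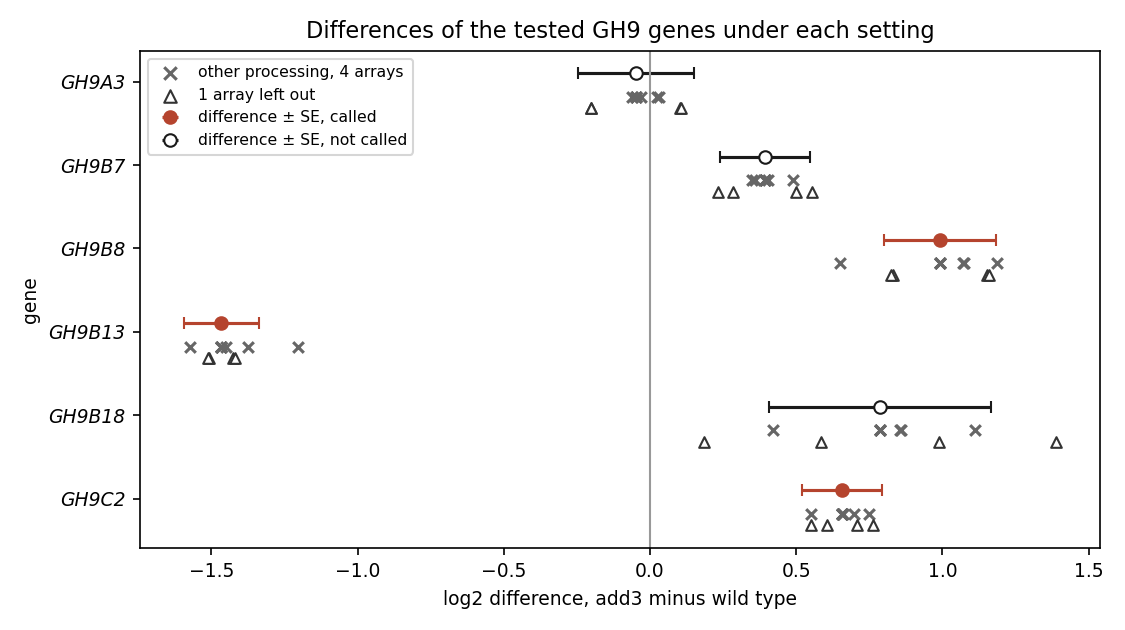
Log2 difference, add3 minus wild type, for each tested GH9 gene. Circles with bars give the difference ± SE, filled where called, crosses give other processing of all 4 arrays and triangles give fits without 1 array. GH9B13 stays between -1.57 and -1.20 throughout, GH9B18 spreads from 0.18 to 1.39, and GH9A3 lies on both sides of 0.

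Over the 6 tested members, 4 log2 differences were above 0, with a median of 0.52. Over all tested probe sets 44.1% were above 0 and the median was -0.05. Among the 4 tested subclass B genes, GH9B8 was called higher and GH9B13 lower, with GH9B7 and GH9B18 not called. GH9B8, GH9B13 and GH9C2 were picked out by their differences on these arrays. GH9B18 passed the filter only through add3, with a mean signal of 53.6 there and 28.8 in wild type. Nothing about the family or subclass B is therefore read from the median, the count above 0 or the directions of these genes.

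**Figure D4:**
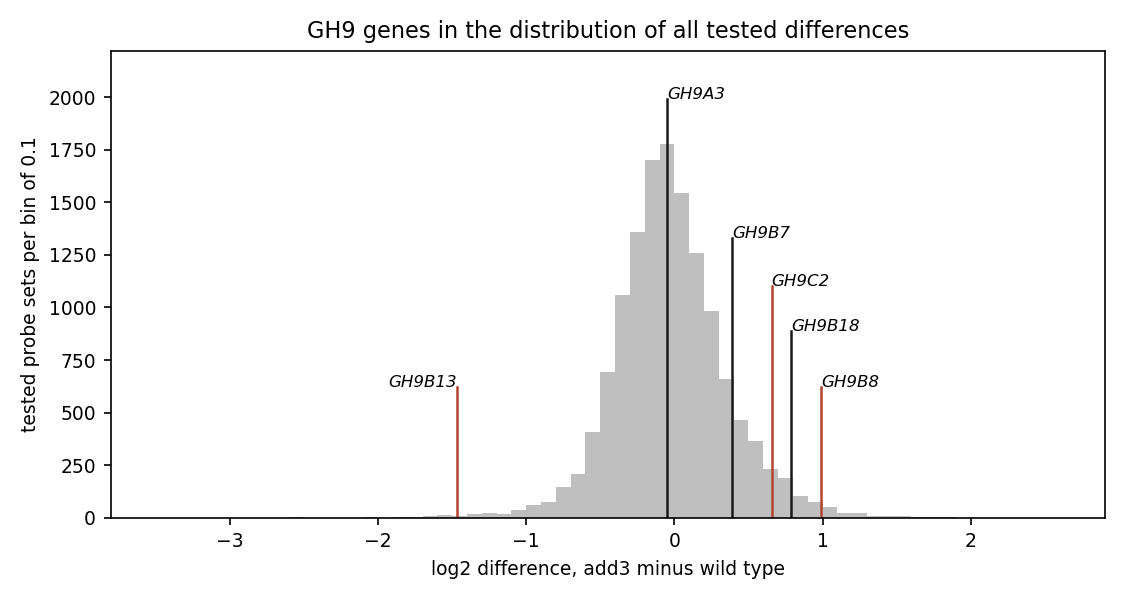
Grey bars count all 13648 tested probe sets by log2 difference (add3 minus wild type, bins of 0.1), and lines mark the GH9 genes, red where called. GH9B13 lies in the far left tail at -1.47, GH9B8 (0.99), GH9B18 (0.79) and GH9C2 (0.66) lie on the right, and GH9A3 lies at the centre.

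The other 9 members were too dim to be tested, 1 of subclass A, 6 of subclass B and 2 of subclass C, with single-array signals from 1.35 to 42.6. Of these, 2 were lower in add3 without overlap, none was higher without overlap and 7 overlapped. Among all untested probe sets 28.7% were lower and 11.3% higher without overlap. GH9C1 (AT1G48930), a subclass C gene, had signals of 15.0 and 17.2 in add3, where replicate 1 was not above background, against 30.6 and 25.3 in wild type, both above background. The signals of GH9C2, of the same subclass, lay apart in the other direction. GH9C1 was not tested, and a separation like its own was seen in 28.7% of untested probe sets, so no contrast within the subclass is read from it. GH9B6 (AT1G23210), with 1.85 and 2.60 in add3 and 3.85 and 3.99 in wild type, was not above background on any array, so its order carries no level.

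GH9B12 (AT2G44570) was the untested member that exceeded background on all 4 arrays, at 36.9 and 23.7 in add3 and 42.6 and 16.5 in wild type. The wild-type values enclosed the mutant ones. GH9A4 (AT3G43860), of subclass A, read 16.8 and 17.8 in add3 and 7.67 and 23.2 in wild type, with replicate 2 of each group above background. GH9B17 (AT4G39000) read 18.7 and 15.6 in add3 and 23.1 and 8.47 in wild type, above background on 1 array of each group. GH9B5 (AT1G19940) read 24.3 and 10.6 in add3 and 28.6 and 9.74 in wild type, and exceeded background on wild-type replicate 1 only. In GH9B12, GH9B17 and GH9B5 replicate 1 was the higher array in both groups. GH9B11 (AT2G44560), GH9B16 (AT4G38990) and GH9C3 (AT4G11050) exceeded background on no array.

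The shared probe set of GH9B14 and GH9B15 read 10.3 and 9.60 in add3, not above background, against 21.2 and 13.4 in wild type, just above it. The groups lay apart, but the signal cannot be assigned to either gene. The shared probe set of GH9B9 and GH9B10 was below background on all 4 arrays.

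The family holds runs of neighbouring genes in the gene table used. GH9B16, GH9B17 and GH9B18 follow each other with 0 protein-coding genes between them, as do GH9B9, GH9B10, GH9B11 and GH9B12. In the first run GH9B18 alone passed the filter, and in the second GH9B12 alone was above background on all arrays. The called genes, GH9B13, GH9B8 and GH9C2, have no family member next to them.

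The nearest annotated probe sets on either side of the tested members were also read. Up to 5 protein-coding genes lay in between, so a gene named as beside a member need not be adjacent to it. Beside GH9B13, AT4G02300 is the next gene and read 7.49 and 3.40 in add3, not above background, against 30.8 and 6.94 in wild type. On the other side AT4G02250 read 10.5 and 1.61 in add3, not above background, against 24.4 and 18.3 in wild type. Beside GH9C2, the log2 difference of AT1G64380 was 0.90 and not called (limma adjusted p = 0.0737). Beside GH9B8, that of AT2G32970 was 0.12 (limma adjusted p = 0.694). The other tested neighbours were SLY1 beside GH9A3 (log2 difference -0.36), AT4G39050 beside GH9B18 (-0.54), and AT1G75670 (0.19) and AT1G75710 (-0.47) beside GH9B7. Of the 6 tested neighbours limma called none, with 4 at an unadjusted p under 0.05, of which 3 were lower in add3. Over all tested probe sets 26.3% had an unadjusted p under 0.05.

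Other genes that build or loosen the wall were taken from lists written with earlier results of these data known. Of 21 tested genes in these lists, limma called 1 higher in add3 and none lower, and the median log2 difference was 0.20. Of all tested probe sets 4.17% were called higher and 3.14% lower. An unadjusted p under 0.05 was seen for 7 of the 21, of which 3 were lower, or 33.3% against the 26.3% of all tested probe sets. Expansins, which loosen walls without cutting glucan chains, and XTH enzymes, which cut and rejoin xyloglucan, had 12 tested genes of 27 with a probe set. Their median was 0.41, and 10 of the 12 estimates were above 0, against 44.1% of all tested probe sets. EXPA16 was among them only through add3, with a mean of 67.4 there and 15.9 in wild type, so nothing is read from that count. Among the untested genes of this list EXPB1, EXPA18 and XTH33 were higher in add3 without overlap. EXPA7, EXPA21, XTH20, XTH21 and XTH29 were lower without overlap. Of all untested probe sets 11.3% were higher and 28.7% lower without overlap. EXPB3, a beta-expansin gene, rose to signals of 173 and 165 in add3, against 42.7 and 84.7 in wild type (log2 difference 1.31, SE 0.25, limma adjusted p = 0.0306, and 0.0164 to 0.0996 over the 12 alternatives). It kept its call on leaving out any 1 of the 4 arrays and lost it with no filter on dim probe sets. The log2 difference was 1.65 for EXPA16 (limma adjusted p = 0.0625), where wild-type replicate 1 was not above background, and EXPA16 was called without wild-type replicate 2 (2.36), with the replicate number as a block (1.65), with median scaling (1.71) and with a pseudocount of the median signal (0.86). It was 0.38 for XTH32 (limma adjusted p = 0.117) and -0.53 for EXPA20 (limma adjusted p = 0.130), neither of them called.

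Of the genes for cellulose synthesis, 18 were listed, the annotation used gave 3 of them a probe set of their own and 2 were tested. The third, AT5G42860, was too dim to be tested, with a mean signal of 31.7. It read 44.8 and 43.2 in add3 and 11.1 and 27.7 in wild type, where replicate 1 was not above background. A separation with add3 higher was seen in 11.3% of all untested probe sets. The other listed genes were not matched to a single-gene probe set in that annotation, so they were not analysed here. COB, which encodes an anchored protein needed for oriented cellulose deposition, had signals of 500 and 427 in add3 and 486 and 487 in wild type, a log2 difference of -0.07 (SE 0.13) that changed sign with median scaling and without add3 replicate 2. AT1G45688, listed as a companion of cellulose synthase, had 187 and 155 in add3 and 98.4 and 144 in wild type (log2 difference 0.47, limma adjusted p = 0.176). Of 7 tested cellulose synthase-like (CSL) genes, which encode enzymes for other wall polysaccharides, limma called none, with 2 at an unadjusted p under 0.05. These were CSLA01, with signals of 25.3 and 21.4 in add3 and 77.5 and 44.7 in wild type (log2 difference -1.001, limma adjusted p = 0.0567), and CSLD2, with 138 and 130 in add3 and 199 and 191 in wild type (-0.50, limma adjusted p = 0.0570). CSLA01 was called without wild-type replicate 2 (-1.33) and with the replicate number as a block, and CSLD2 with the 60th percentile filter. The log2 differences of the other CSL genes were 0.23 for ATCSLC08, -0.28 for CSLA03, 0.12 for CSLC04, -0.07 for CSLC6 and 0.04 for CSLC5, and the sign changed in 1 or more alternatives for CSLA03, CSLC04, CSLC6 and CSLC5.

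**Figure D5:**
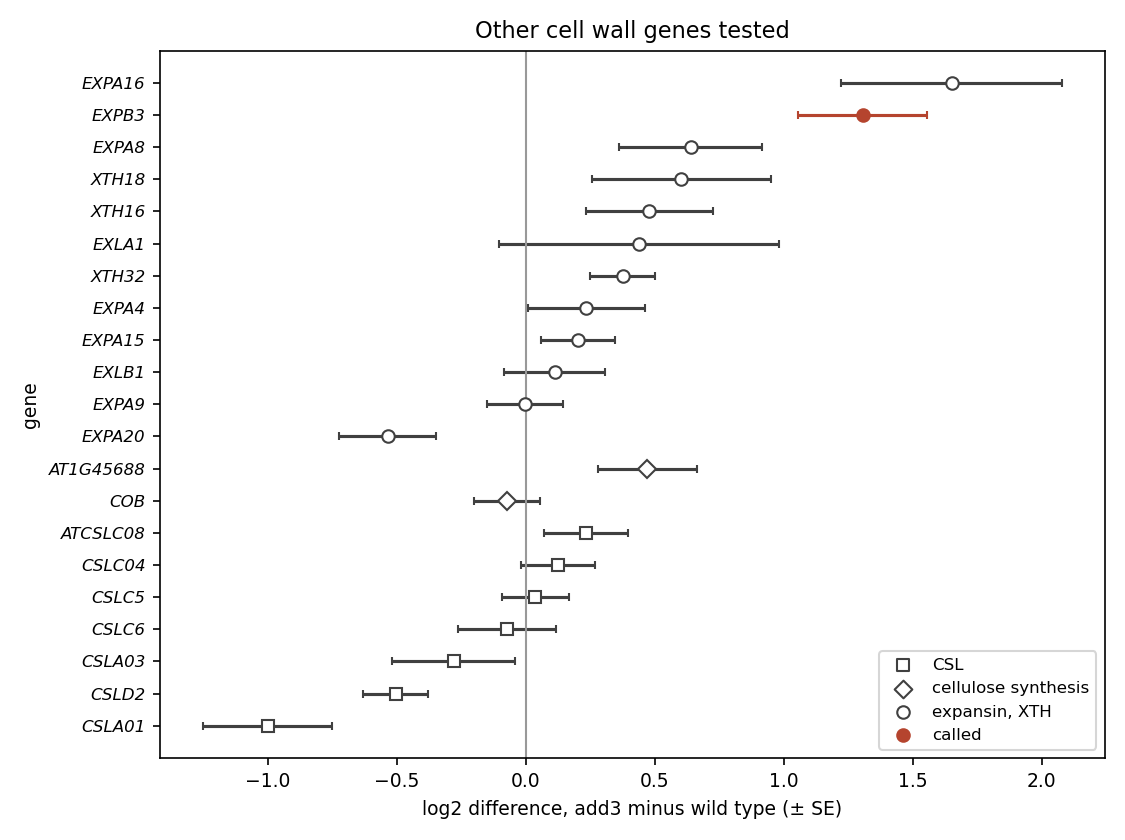
Log2 difference ± SE, add3 minus wild type, for the 21 tested cell wall genes outside the GH9 family, with squares for CSL genes, diamonds for cellulose synthesis and circles for expansins and XTH genes. EXPB3 (red, 1.31) is the called gene, and the CSL genes spread from -1.001 to 0.23.

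For each tested member the 3 single-gene probe sets with the closest pattern were sought, measured as the root mean square distance between centred log2 values over the 4 arrays. With so few arrays many probe sets lie close, and a small distance says only that the signals move alike on these arrays. GH9B13 was closest to AT5G19120 (distance 0.065), which had signals of 165 and 162 in add3 and 499 and 535 in wild type, then to JAL23 (0.098) and AT1G65370 (0.102). GH9B8 was closest to AT3G54400 (0.059), with 593 and 491 in add3 and 256 and 294 in wild type, then to AT2G10940 (0.063) and AT2G42130 (0.076). GH9C2 was closest to AT3G50270 (0.013), AT5G42070 (0.021) and AT2G44760 (0.021). GH9B18 had no neighbour as close, the first being the xyloglucan enzyme gene XTH18 (0.132), with 117 and 72.0 in add3 and 86.1 and 35.5 in wild type. GH9B7 was closest to AT5G03900 (0.020) and GH9A3 to AT3G19200 (0.011).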

How the data were processed

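Transcripts were measured on 4 ATH1 arrays of Arabidopsis shoots. The deposited intensity values are linear MAS5 signals, 1 per probe set and array, per the submitters' processing notes, with each array scaled as a whole. The MAS5 version is not given in the sources used here. Sample titles gave the groups and replicate numbers. Of 22810 probe sets, 64 controls were dropped. In the platform annotation 13513 probe sets had 1 gene, 503 had several and 8730 had none. RefSeq's gene table supplied symbols, loci and gene order for 13436 of the single-gene probe sets.

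Signals were analysed as log2(signal + 12.5), the pseudocount being 0.25 of the median signal (50.1). limma 3.58.1 under R 4.3.3 fitted group means to 13648 probe sets (two-sided moderated tests, variances following signal intensity, 2 degrees of freedom left for error), and the code was tested on simulated data. Figures were drawn in matplotlib 3.10.9. The brightest probe set stood for a locus in the lists. A list of other glycoside hydrolases matched no gene in the table, and no seed or trichome marker was matched to a single-gene probe set in the annotation. Every GH9 member was named, all tested genes of lists with up to 8, and otherwise the 4 with the smallest p. The members and lists were chosen with earlier results of these data known.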

Additional observations from a re-analysis of the deposited data

How the results depend on the processing

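Over all probe sets, 997 calls became 13 with no filter on dim probe sets (4143 at an unadjusted limma p under 0.05), 555 without an intensity trend, and 437 to 817 without 1 array. Of the GH9 members 3 were called, against 1 with no filter and 1 to 2 without 1 array. GH9B13 was among the calls in all 12 alternatives, while GH9B8 kept its call in 8 of 11 and GH9C2 in 6 of 12. The 1 call among other cell wall genes became 2 with a pseudocount of the median signal, with the 60th percentile filter and with median scaling, 0 with no filter, and 1 to 4 without 1 array, with the highest count without wild-type replicate 2. Log2 differences that changed sign were those of GH9A3 (0.030 with median scaling, 0.024 with quantile normalization, -0.20 to 0.11 without 1 array), COB (0.024 with median scaling, -0.18 to 0.038 without 1 array) and CSLC6 (0.013 with median scaling, -0.33 to 0.18 without 1 array). Leaving out 1 array also turned the sign of CSLA03 (-0.64 to 0.078), CSLC04 (-0.023 to 0.27) and CSLC5 (-0.015 to 0.091). The cause of these changes was not tested.

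The labels do not say that replicate numbers pair the samples, and deviations of same-numbered arrays correlated at -0.12 over the tested probe sets. With a replicate block 878 probe sets, 3 GH9 members and 3 other cell wall genes were called. With the crossed pairing as a block, chosen after seeing the data, the counts were 1909, 3 and 4.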
